A study of Arabidopsis thaliana with 27 samples.

Results

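The comparison described here is that of Arabidopsis plants kept at 38 °C for 8 h (Heat08hr, 3 arrays) with plants of the same clock time kept at 22 °C (Control08hr, 6 arrays), which together are 9 of the 27 arrays of the series. All plants were wild type of accession Columbia (Col-0), grown on agar plates at 22 °C with 16 h of light and 8 h of dark. The heat began 3 h after the onset of light, and both groups were harvested 11 h after it, so that the time of day is the same in both. Heat08hr plants were 18 days old, and Control08hr holds 3 arrays of 18-day-old and 3 of 19-day-old plants. A morning control at 22 °C (Control24hr, 9 arrays, plants of 18, 19 and 20 days) is used below for levels only. Each array stands for a biological replicate by the study's methods, the aerial parts of plants grown on plates were collected, and the labels give the tissue as leaf. Each array is an Affymetrix ATH1 array of 1 colour, and its values are MAS5 signals, a linear measure of brightness per probe set with a lowest value of 1. All 22746 probe sets of the table were compared.

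Heat unfolds proteins, and plant cells answer by transcribing chaperone genes within minutes. Heat shock transcription factors bind the promoters of genes for small heat shock proteins, HSP70, HSP90 and their partners, which hold, refold or sort unfolded clients. Membrane-bound bZIP factors raise chaperones of the endoplasmic reticulum (ER) in a separate branch. In leaves, photosynthesis, growth and the clock are also sensitive to warmth, and the organelles keep a small set of genes of their own that are transcribed outside the nucleus.

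Limma's moderated test on log2 signals, with p-values adjusted by Benjamini-Hochberg over all 22746 probe sets, set Heat08hr against Control08hr. At an adjusted p under 0.05 and at least 2-fold, 1905 probe sets (8.38%) were higher at Heat08hr and 3710 (16.3%) lower. Without the limit on the fold, 4432 (19.5%) rose and 6612 (29.1%) fell, and below, rose and fell stand for any change with an adjusted p under 0.05 from this test. On 4357 probe sets (19.2%) all Heat08hr arrays lay above all Control08hr arrays, and on 6188 (27.2%) all lay below. Falls outnumbered rises at log2 limits of 2 (587 rises and 1276 falls), 3 (226 and 423) and 4 (120 and 156), and at a limit of 5 there were 72 rises and 43 falls.

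The balance of both directions rests on how the arrays are put on 1 scale. The deposited arrays share a trimmed mean of 494.9 to 495.8, and their median signal was 128.1 to 133.6 at Heat08hr and 165.8 to 175.4 at Control08hr. As deposited, 33.9% of the calls of at least 2-fold were rises. After quantile normalization there were 2417 rises and 2938 falls (45.1% rises), and after median centring, which takes from each array the median of its log2 signals, 3400 rises and 2405 falls (58.6% rises). Over the whole table, the log2 fold change had a median of -0.126 as deposited, 0.0466 after quantile normalization and 0.2462 after centring. Centring moves every log2 fold change upward by the same amount, and GSA1, at -0.36 as deposited, changed sign by it. Changes of this size or smaller have no settled direction, whereas most of the genes named below moved by more.

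**Figure D1:**
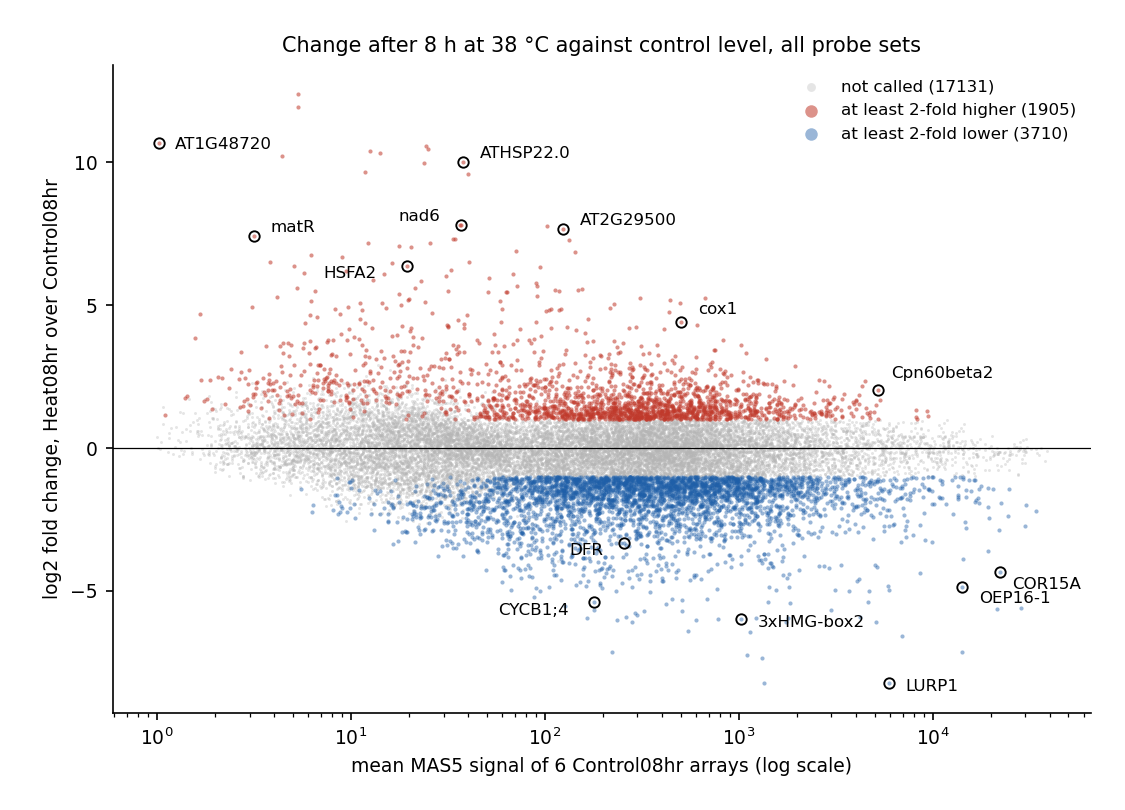
Log2 fold change of Heat08hr over Control08hr (vertical axis) against the mean signal of the Control08hr arrays (horizontal axis, log scale) for all 22746 probe sets. Probe sets at least 2-fold higher (1905) and lower (3710) at an adjusted p under 0.05 are coloured, and named genes of the text are marked; the highest points lie at low control signals and the deepest falls at control signals from about 100 upward.

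The calls were spread over the whole range of brightness. Of the 6007 probe sets with a mean control signal under 30, 349 were at least 2-fold higher and 149 lower. Among the 4533 probe sets between 100 and 300, 499 were higher and 1042 lower. At 3000 and above, 38 of 1138 were higher and 250 lower. Among brighter probe sets, array-to-array scatter was small beside the difference between the groups. Correlations of log2 signals were taken over the 13006 probe sets with a geometric mean of at least 100, without the dim ones. They were 0.980 to 0.987 between Heat08hr arrays, 0.982 to 0.988 between Control08hr arrays and 0.744 to 0.764 between arrays of different groups. The annotation used here ties 14208 genes to 1 probe set each, and 1152 of these (8.11%) were at least 2-fold higher and 2205 (15.5%) lower. Counts of gene groups below are to be read beside these shares. Each probe set is counted with the genes listed for it, and whether it also detects other transcripts was not tested. In whole shoots, fewer cells of a type and less RNA per cell cannot be told apart.

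The tissue was checked by markers of its organs. The leaf gene RCA, for Rubisco activase, averaged 27878 ± 3534 at Heat08hr and 27182 ± 1791 at Control08hr (n = 3 and 6), and LHCB4.1, for an antenna protein of photosystem II, 25287 ± 1768 and 27496 ± 1377. Root hair expansin genes were dim in both groups, EXPA7 at 27.3 and 26.6 and EXPA18 at 57.7 and 34.01. The seed oleosin genes OLEO1 (26.7 and 24.7) and OLEO2 (14.3 and 20.2) were dim as well. The epidermal lipid transfer protein gene LP1 averaged 16927 and 17210. Means are given ± SD over 3 and 6 arrays here and below. None of these 7 markers passed the test on the deposited scale, and no flower marker was named. With arrays centred on their median, RCA, LHCB4.1 and LP1 passed at log2 fold changes of 0.403, 0.25 and 0.345.

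Of the 1905 rises of at least 2-fold, 730 lay on probe sets not tied to 1 gene here, as did 1494 of the 3710 falls. The largest rise of all, a log2 fold change of 12.37 (standard error 0.421), is among them. The 15 largest rises among genes with 1 named probe set were led by AT1G48720, whose signals at Heat08hr were 2050, 1372 and 1646 against 1 to 1.11 with a median of 1 at Control08hr. Its log2 fold change was 10.68 (standard error 0.122), and the control signals lie at the lowest value of the table, so that the size of the fold is set by that limit. AT1G52560 followed with 3831, 3899 and 5073 at Heat08hr, against 2.03 to 11.9 with a median of 3.26 at Control08hr. It is a gene to which no name is given here, as are AT1G53540, AT5G51440, AT4G23493, AT5G07330, AT1G35050 and AT1G71000. AT1G53540 went to 19959, 18063 and 25777 in heat, against 5.73 to 83.6 with a median of 37.7 in control plants. AT5G51440 had 4761, 4875 and 5586 at Heat08hr and 3.60 to 85.9 with a median of 28.8 at Control08hr. No Heat08hr array overlapped a Control08hr array for any of these 4. AT4G23493 (log2 fold change 7.07), AT5G07330 (6.76), AT1G35050 (6.67) and AT1G71000 (6.52) completed the unnamed ones, all with control means of 6.25 to 40.7. The other 7 belong to heat shock proteins (ATHSP22.0 and AT2G29500), co-chaperones (Hop3 and AT5G48570) and mitochondrial genes (nad6, matR and nad5), and are described with their groups.

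Heat shock genes rose steeply. Of 24 measured genes of the heat shock and chaperone lists, 14 were at least 2-fold higher and 1 lower (8.11% and 15.5% of all named genes), with a median log2 fold change of 1.61. Only a small share of these lists could be counted, since a member needed a probe set and a name or description that matched. Counted were 1 of 21 heat shock factors, 3 of 19 small heat shock proteins and 8 of 17 co-chaperones. A gene whose identifier the annotation does not describe is counted with no list. This holds for the unnamed genes among the largest rises above, and whether they belong to these families was not tested. The factor at hand was HSFA2 (AT2G26150), which keeps the response going during long heat, with 1145, 1096 and 1304 at Heat08hr and 2.98 to 45.5 with a median of 18.197 at Control08hr. The Heat08hr values lay within a narrow band, while the control values near the floor of the table were widely scattered and set the standard error of 0.762 around its log2 fold change of 6.37.

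Small heat shock proteins bind unfolding proteins and keep them soluble. ATHSP22.0 (AT4G10250), the member that resides in the ER, had signals of 26936, 23975 and 28048 at Heat08hr, against 4.97 to 70.3 with a median of 36.4 at Control08hr (log2 fold change 9.99, standard error 0.875, adjusted p = 2.28e-05, limma). AT2G29500, annotated as a putative small heat shock protein, reached 24980, 21691 and 28509, against 88.3 to 162 with a median of 124 (log2 fold change 7.67, standard error 0.182, adjusted p = 7.51e-08). AT2G19310, annotated in the same way, was already well above the floor without heat, with 14328, 12051 and 15822 at Heat08hr and 1610 to 2071 with a median of 1981 at Control08hr (log2 fold change 2.86, standard error 0.117). No Heat08hr array overlapped a control array for any of the 3, and the size of the rise differed widely between them.

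Co-chaperones steer clients between HSP70 and HSP90. All 8 measured were at least 2-fold higher, beside 8.11% of all named genes, with a median log2 fold change of 3.91. Hop proteins bridge both chaperones, and the 3 genes of the family moved by very different amounts. Hop3 (AT4G12400) had 5136, 4074 and 4871 at Heat08hr and 11.6 to 48.0 with a median of 41.6 at Control08hr (log2 fold change 7.32, standard error 0.508, adjusted p = 6.06e-06, limma). Hop2 averaged 3089 ± 594 and 686 ± 72.8 (log2 fold change 2.16) and Hop1 2271 ± 336 and 719.9 ± 43.5 (log2 fold change 1.65). All 3 rose with no overlap between the groups. Signals of different probe sets are not comparable as amounts of transcript, so levels are set against each other only within a probe set.

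AT5G48570, which the reference lists under the synonyms ROF2 and FKBP65 for a prolyl isomerase that binds HSP90, had 19686, 17044 and 21567 at Heat08hr against 82.0 to 179 with a median of 137 (log2 fold change 7.26, standard error 0.302, adjusted p = 5.08e-07). HSA32 (AT4G21320), needed for lasting acquired thermotolerance, had 9165, 8079 and 5185 against 55.3 to 136 with a median of 94.6 (log2 fold change 6.32). The calmodulin-binding co-chaperone BAG6 had 3466, 2920 and 3772 against 99.1 to 142 with a median of 119 (log2 fold change 4.84). The groups did not overlap for any of the 3, and the control arrays of the first 2 spread over more than 2-fold. Fes1A, which protects cytosolic HSP70 from degradation, averaged 2169 ± 359.8 and 275 ± 13.3 (log2 fold change 2.97). SGT1A, an HSP90 partner in immune receptor assembly, showed the smallest rise of the 8, at 1677 ± 85.6 and 616 ± 27.4 (log2 fold change 1.44). SQN, a cyclophilin that works with HSP90 and was outside the list, averaged 862 ± 51.8 and 68.8 ± 9.26 (log2 fold change 3.65).

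**Figure D2:**
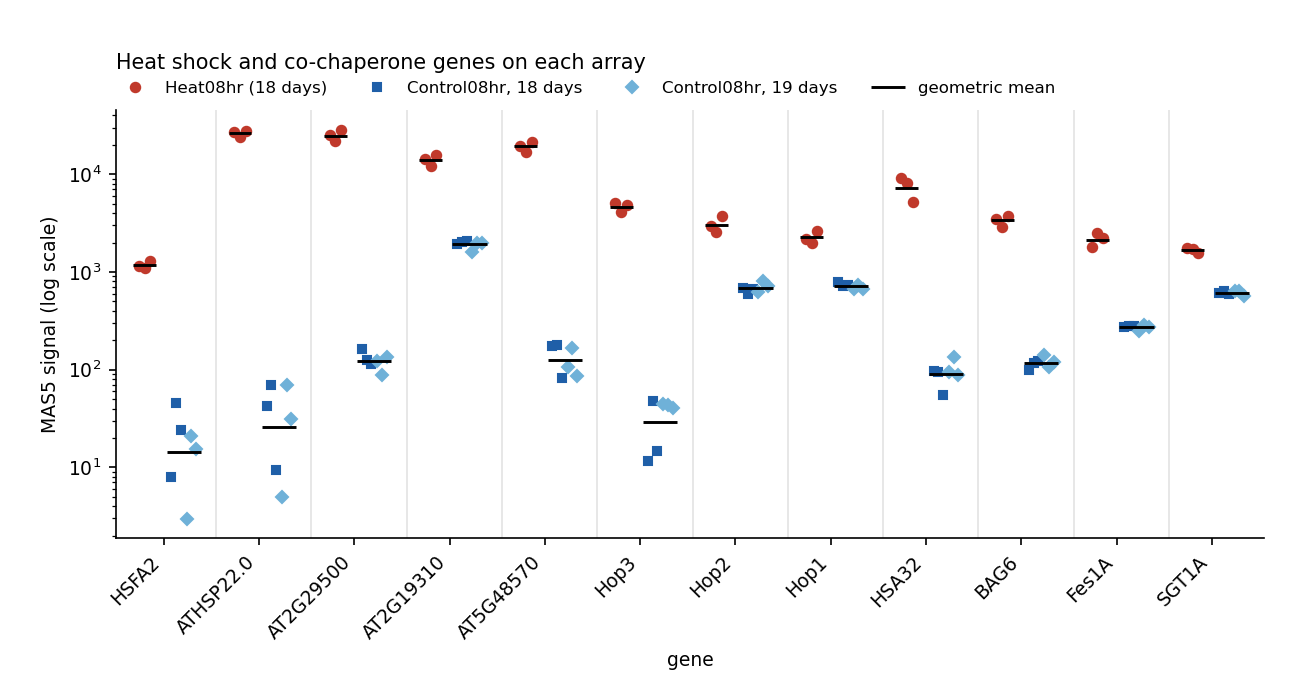
Signal (log scale) of 12 heat shock and co-chaperone genes on every array, with Heat08hr (3 arrays) left of Control08hr (6 arrays, 18 and 19 days marked apart) for each gene. Horizontal bars are geometric means; no Heat08hr point overlaps the Control08hr points of its gene, and HSFA2 and ATHSP22.0 have the most scattered controls.

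Not every chaperone was higher in heat. Among 15 genes whose annotation says heat shock protein, chaperone or DnaJ, 5 (33.3%) were at least 2-fold higher, 1 (6.67%) lower, and 5 did not pass the test. The shares of all named genes were 8.11% higher and 15.5% lower. Cpn60beta2, a subunit of the chloroplast chaperonin that folds Rubisco, had 21730, 19041 and 22946 at Heat08hr and 4568 to 5452 with a median of 5355 at Control08hr (log2 fold change 2.02). Its relatives Cpn60beta3 (423 and 279, adjusted p = 0.0537) and Cpn60beta4 (1261 and 1525, adjusted p = 0.074) did not pass as deposited. Cpn60beta3 passed as a rise in 9 of the 18 alternatives, at log2 fold changes of 0.572 to 0.972, and Cpn60beta4 as a fall in 4, at -0.333 to -0.278. Hsp70-2, the only HSP70 gene at hand, averaged 353 ± 32.4 at Heat08hr and 389 ± 37.9 at Control08hr (adjusted p = 0.333, limma). Falls were seen for ATERDJ2B (137 and 297, log2 fold change -1.12), a J protein of protein import into the ER, and KIS (-0.50), a cofactor of tubulin folding. KIS did not pass with arrays centred on their median (adjusted p = 0.394), and ATERDJ2B was then lower by less than 2-fold. Cpn60beta3, Cpn60beta4 and Hsp70-2 were named after their values were seen.

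Of 7 measured genes of protein folding in the ER and its unfolded protein response, 4 (57.1%) were at least 2-fold higher. The share of all named genes was 8.11%. None of the 7 was lower, and 3 did not pass the test. PDIL2-3, a protein disulfide isomerase, had 5520, 5654 and 5014 at Heat08hr and 767 to 900.5 with a median of 857 at Control08hr (log2 fold change 2.68, standard error 0.0836, adjusted p = 1.7e-07, limma). The calreticulin CRT1b averaged 5506 ± 163 and 1945 ± 178 (log2 fold change 1.51) and the ER J protein ATERDJ3B 4243 ± 149.7 and 1435 ± 70.2 (log2 fold change 1.56). UTR1, a nucleotide sugar transporter of the ER outside the list, went to 3229, 3510 and 2547 in heat, against 264 to 379 with a median of 311 in control plants (log2 fold change 3.27). The sensors of this branch did not move alike. BZIP28, a factor released from the ER membrane by cleavage, had 1826, 2215 and 1960 at Heat08hr and 437 to 564 with a median of 456 at Control08hr (log2 fold change 2.09). BZIP17, its close relative, averaged 472 ± 79.3 and 388 ± 20.2 (adjusted p = 0.0835) and BZIP60 532 ± 49.6 and 563 ± 42.9 (adjusted p = 0.534). The activity of BZIP60 depends on splicing of its transcript, which a probe set signal does not show. Across 16 bZIP factors, 4 (25.0%) were at least 2-fold higher and none lower, beside 8.11% of all named genes higher. BZIP34, among the 4, had 258, 239.6 and 137 at Heat08hr against 4.46 to 45.5 with a median of 20.5 (log2 fold change 3.54, standard error 0.684).

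Nearly all mitochondrion-encoded genes at hand were higher at Heat08hr. They were picked by symbol (nad, cox, ccb, matR or orf), so that other mitochondrial genes were not counted. Of these 16, 15 (93.8%) were at least 2-fold higher, beside 8.11% of all named genes, with a median log2 fold change of 4.298. Plant mitochondria encode a part of respiratory complex I (nad), of cytochrome c oxidase (cox), of the machinery that attaches heme to cytochrome c (ccb) and a maturase for splicing (matR). Among the complex I genes, nad6 had 8774, 7648 and 7467 at Heat08hr and 25.9 to 58.7 with a median of 34.8 at Control08hr (log2 fold change 7.80, standard error 0.248, adjusted p = 1.72e-07, limma), and nad5 had 7998, 8300 and 7954 against 52.7 to 98.03 with a median of 67.3 (log2 fold change 6.88). nad4L (log2 fold change 5.93), nad1 (5.15), nad9 (4.19) and nad7 (3.62) followed. nad4 rose least of the complex I genes that passed, to 1937 ± 453 at Heat08hr, against 807 ± 153 (log2 fold change 1.26). nad2, named after its values were seen, averaged 23.2 ± 5.34 and 41.4 ± 19.5 and did not pass the test (log2 fold change -0.69, adjusted p = 0.286).

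Both cytochrome c oxidase genes at hand rose. cox1 had 10524, 11133 and 10222 at Heat08hr and 426 to 576 with a median of 506 at Control08hr (log2 fold change 4.40, standard error 0.101, adjusted p = 6.94e-08, limma). cox2 had 4856, 4673 and 4225 against 49.5 to 94.0 with a median of 65.6 (log2 fold change 6.10). The heme attachment genes ranged from ccb203 (846 ± 261 and 21.3 ± 14.9, log2 fold change 5.61) and ccb452 (2585 ± 273 and 162 ± 27.6, 4.02) to ccb206 (2.47) and ccb382 (1933 ± 231 and 903 ± 101, 1.098). matR had 473, 504 and 469.6 in heat, against 2.06 to 6.85 with a median of 2.49 in control plants, again close to the lowest value of the table. All 15 that rose had no overlap between the groups, beside 19.2% of all probe sets with all Heat08hr arrays above. The probe sets of nad6, nad5, matR and ccb452 carry the manufacturer's suffix for probe sets that may match several transcripts, and nuclear copies of mitochondrial sequence exist in this species, so that which copy gave the signal was not tested. AT1G48720 and AT1G35050, among the largest rises above, have the same suffix. Whether the signals of organelle-encoded genes follow the amounts of their transcripts was not tested.

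Nuclear genes of the respiratory chain were not all higher. CYTC-2, for cytochrome c itself, had 4234, 4720 and 4197 at Heat08hr and 414 to 593 with a median of 448 at Control08hr (log2 fold change 3.23, adjusted p = 3.62e-07). Of the alternative NADH dehydrogenases, NDB2 rose by 0.62 on the log2 scale (233 ± 22.1 and 152 ± 18.8) and NDA2 fell by 1.39 (104 ± 22.8 and 272 ± 53.8). These 2 were the measured members of a list too short for a count.

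**Figure D3:**
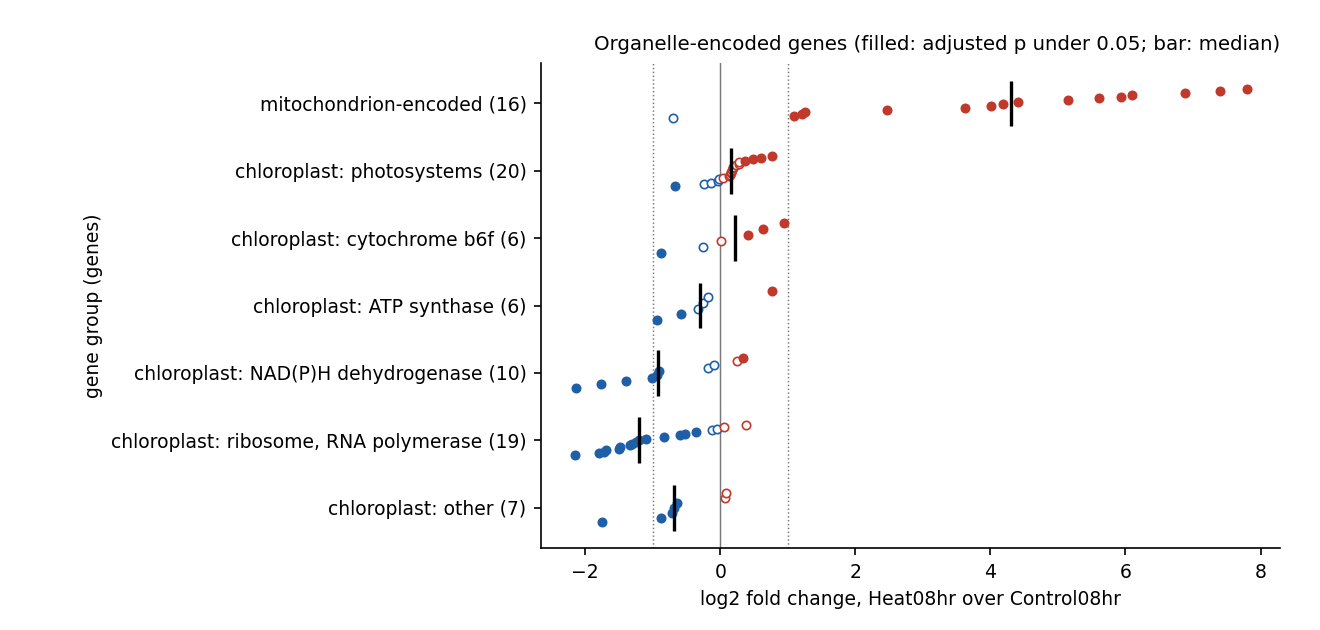
Log2 fold change of Heat08hr over Control08hr for each of 16 mitochondrion-encoded and 68 chloroplast-encoded genes, with the chloroplast genes split by function into 6 rows. Filled points passed an adjusted p of 0.05; the mitochondrial genes lie between -0.69 and 7.80 and the chloroplast genes between -2.15 and 0.95, and vertical lines mark no change and 2-fold.

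Chloroplast-encoded genes did not share this rise. Of 68 chloroplast-encoded genes, none was at least 2-fold higher and 16 were at least 2-fold lower, with a median log2 fold change of -0.21. Without the fold limit, 9 rose and 30 fell. The falls gathered in the genes that make the chloroplast's own ribosomes and RNA polymerase, of which 11 of 19 were at least 2-fold lower and 15 fell (median log2 fold change -1.20). rpl20 had 892, 476 and 394 at Heat08hr and 1993 to 3111 with a median of 2568 at Control08hr (log2 fold change -2.15, standard error 0.263, adjusted p = 0.000166, limma). The ribosomal protein genes rpl22 (log2 fold change -1.80), rpl16 (-1.72) and rpl14 (-1.70) and the polymerase genes rpoC2 (-1.50), rpoC1 (-1.49) and rpoA (-1.31) moved by similar amounts. rps18 (3235 ± 814 and 3050 ± 321, adjusted p = 0.823) and rpl32 (adjusted p = 0.0949) did not pass. Neither did rps16 (adjusted p = 0.546) nor another polymerase gene, rpoB (log2 fold change -0.046, adjusted p = 0.916). rps16 and rpoB are not among the 228 genes counted further below.

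The chloroplast NAD(P)H dehydrogenase passes electrons back to plastoquinone. Of its 10 chloroplast genes, 4 were at least 2-fold lower (median log2 fold change -0.92), beside 15.5% of all named genes. ndhA had 3965, 3463 and 2547 against 10210 to 11923 with a median of 11348 (log2 fold change -1.77). The 20 photosystem genes had no change of 2-fold in either direction and a median of 0.163. psbA, for the D1 protein that light damages and the cell replaces, averaged 8998 ± 542 at Heat08hr and 5948 ± 902 at Control08hr (log2 fold change 0.61). psaB (27182 ± 3262 and 29874 ± 1857, adjusted p = 0.291) and psbM (28471 and 26260, adjusted p = 0.59) did not pass as deposited, nor did atpB (29403 and 35109, 0.055) and atpE (30387 and 34565, 0.21) of the ATP synthase. rbcL, for the large subunit of Rubisco, averaged 6202 ± 399 and 9957 ± 953 and fell by 0.68 on the log2 scale. petN, of the cytochrome b6f complex, showed the largest rise of the chloroplast genes, with 838, 840.3 and 793 against 376 to 482 with a median of 424 (log2 fold change 0.95). The chloroplast values are among those that the scaling moves. With arrays centred on their median, 11 of the 20 photosystem genes rose and none fell, and the ribosomal and polymerase genes still had 11 falls, with 1 rise, while 10 of the 68 genes were at least 2-fold lower and 3 higher. Chloroplast genes other than rpl20, petN, psaB, psbM, atpB and atpE were named after their values were seen.

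All 4 measured genes of photorespiration fell, whereas the share of nuclear photosystem genes that was lower by 2-fold was near that of all named genes. Of 8 light harvesting and photosystem genes, 1 (12.5%) was at least 2-fold lower, beside 15.5% of all named genes, another fell and 1 rose by less, and 5 did not pass. The first was PSAN, a subunit of photosystem I on its lumenal side, with 7520, 6903 and 8255 at Heat08hr and 18366 to 21549 with a median of 20481 at Control08hr (log2 fold change -1.43, standard error 0.0866, adjusted p = 2.98e-06, limma). LHCB4.2 rose by 0.59 on the log2 scale (20268 ± 1860 and 13552 ± 1642). Among the bright members, PSAE-1 (23030 and 26777, adjusted p = 0.222), PSBY (20758 and 23302, 0.218) and ATPC1 (18924 and 21764, 0.0702) did not pass. In the Calvin cycle, where only 3 genes were named, SBPASE fell to 6332 ± 507 at Heat08hr, against 17329 ± 2304 (log2 fold change -1.45), whereas PRK averaged 18809 and 21607 (adjusted p = 0.0841). Photorespiration salvages the product of Rubisco's reaction with oxygen, and 3 of its 4 genes fell at least 2-fold (median log2 fold change -1.25). GDCH and GLDP2 encode subunits of the glycine decarboxylase complex. GDCH had 7562, 7356 and 7790 at Heat08hr and 15650 to 17204 with a median of 16297 at Control08hr (log2 fold change -1.11), and GLDP2 655, 486 and 550.1 and 1255 to 1780 with a median of 1462 (-1.40). LrgB, a transporter of glycolate and glycerate in the chloroplast envelope, had 2927, 2846 and 3130 and 7440 to 8718 with a median of 8044 (-1.43), and HPR fell by 0.41, which did not pass after centring on the median (adjusted p = 0.771). Of 7 genes of chlorophyll synthesis, 5 fell, but only CHLI2, of the magnesium chelatase, at least 2-fold (961 ± 12.2 and 2124 ± 103, log2 fold change -1.14), and the methyltransferase gene CHLM rose by 0.67. The 1 of 7 (14.3%) is again near the share of all named genes. HEME2 fell by 0.75, GSA1 by 0.36 and PORB, which makes chlorophyllide in the light, by 0.33 (GSA1 and PORB had changes of 0.011 and 0.046 after centring on the median), and HEMB1 averaged 4897 and 4493 (adjusted p = 0.198). After centring on the median, no gene of the chlorophyll list was at least 2-fold lower and 1 was higher.

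Genes of cell division were lower at Heat08hr. Of 6 cell cycle genes all fell, with a median log2 fold change of -2.66. At least 2-fold lower were 5 (83.3%), beside 15.5% of all named genes. CYCB1;4, a cyclin of mitosis, was close to the lowest value of the table in heat, with 5.22, 2.66 and 5.31 at Heat08hr and 147 to 206 with a median of 174 at Control08hr (log2 fold change -5.40, standard error 0.23, adjusted p = 5.76e-07, limma). AUR1, an Aurora kinase of the spindle, had 59.9, 28.8 and 70.9 against 343 to 402 with a median of 374 (log2 fold change -2.91) and its relative AUR2 118, 112 and 109.9 against 254 to 436 with a median of 339.7 (-1.58). The groups did not overlap for any of the 6, beside 27.2% of all probe sets with all Heat08hr arrays below. PRL and MCM5, subunits of the helicase that opens DNA for replication, had log2 fold changes of -2.64 (92.7 ± 5.38 and 582 ± 78.9) and -2.69 (43.9 ± 26.4 and 247 ± 63.7). PCNA2, the sliding clamp of DNA polymerase, moved least, at 438 ± 67.7 and 747 ± 50.3 (log2 fold change -0.78).

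A wider set of chromosome and spindle genes, gathered by symbol after their values were seen, had a median log2 fold change of -2.06. At least 2-fold lower were 13 of 16 members (81.2%), beside 15.5% of all named genes. 3xHMG-box2, which binds chromosomes in mitosis, had 24.1, 24.6 and 7.22 at Heat08hr and 961 to 1173 with a median of 1014 at Control08hr (log2 fold change -5.98). TOPII, a topoisomerase, averaged 24.6 ± 15.67 and 332 ± 56.0 (log2 fold change -3.93), and the centromeric histone gene HTR12 14.97 ± 11.4 and 148 ± 20.4 (-3.57). Histone H2B genes were unequal. HTB2 (188 ± 16.96 and 1891 ± 173, log2 fold change -3.33) and HTB11 (264 ± 17.7 and 1536 ± 84.1, -2.54) fell far more than HTB4 (3227 ± 132 and 4091 ± 389.6, -0.34). The change of HTB4 did not pass without Heat08hr replicate 2 (adjusted p = 0.067) and came to 0.034 after centring on the median. BUBR1 (-1.99) and BUB3.1 (-1.69) of the spindle checkpoint and the kinesin of the division plane KINESIN-12B (-3.19) fell as well, though the arrays of BUBR1 overlapped between the groups. With control arrays of 19 days only, BUBR1 (adjusted p = 0.0991) and KINESIN-12B (0.0577) did not pass, nor did KINESIN-12B with those of 18 days (0.0611). BUB3.2, with 74.6 and 87.8, was the member that did not pass. UBC20, a ubiquitin-conjugating enzyme of dividing cells, averaged 109 ± 16.6 and 657 ± 66.7 (log2 fold change -2.60).

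**Figure D4:**
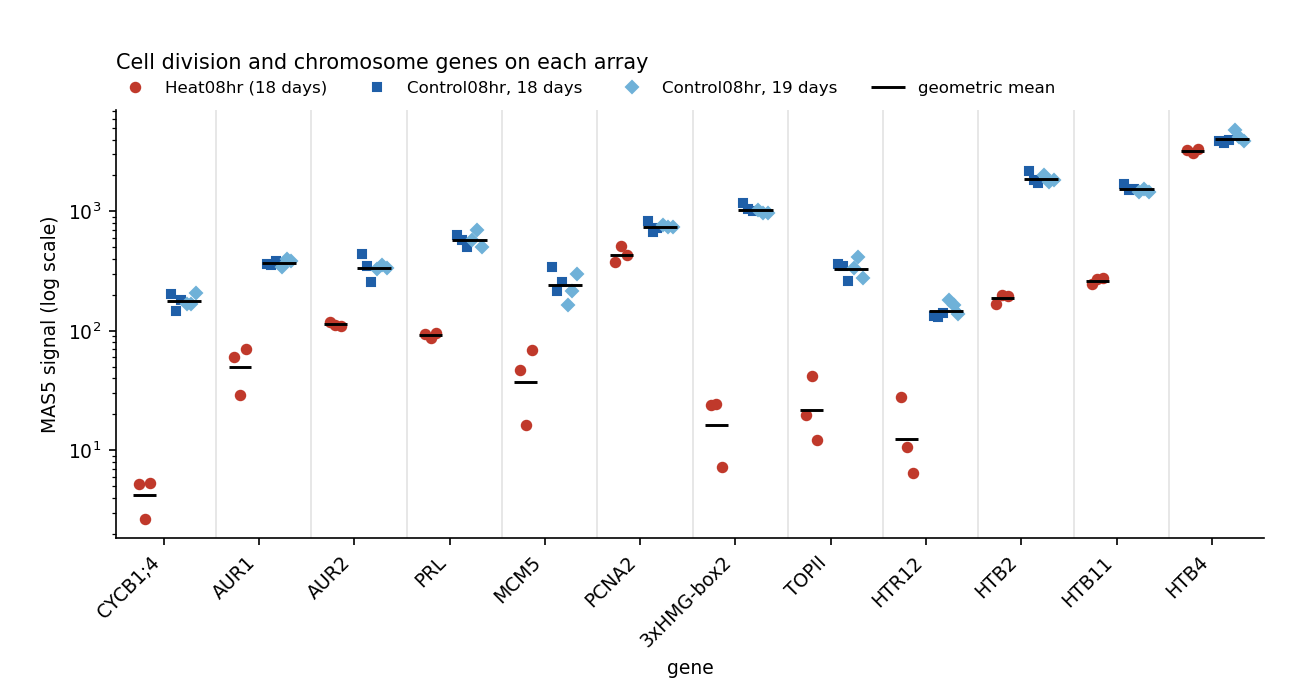
Signal (log scale) of 12 genes of cell division and chromosomes on every array, with Heat08hr (3 arrays) left of Control08hr (6 arrays, 18 and 19 days marked apart) for each gene. Horizontal bars are geometric means; all Heat08hr points lie below the Control08hr points of the same gene, by the widest gap in 3xHMG-box2 and by the narrowest in HTB4 and PCNA2.

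Several genes of cell expansion and the wall fell. Of 27 expansins and xyloglucan endotransglucosylases, 8 (29.6%) were at least 2-fold lower and none higher, beside 15.5% lower among all named genes. Their median log2 fold change was -0.23, beside -0.126 for all probe sets. The expansin EXPA8 had 473, 393 and 303 at Heat08hr and 2191 to 2536 with a median of 2279 at Control08hr (log2 fold change -2.60, standard error 0.136, adjusted p = 1.45e-06, limma). EXP3 (182 ± 44.6 and 1072 ± 36.5, log2 fold change -2.59) and EXPA4 (133 ± 22.2 and 655 ± 45.3, -2.31) followed, and EXPA6 (1182 and 2510) fell by 1.098 and XTH4 by 0.91, whereas XTH16 rose by 0.65. Of 7 tubulin genes, 4 (57.1%) were at least 2-fold lower, TUB9 the most (665 ± 91.6 and 2130 ± 129.8, log2 fold change -1.69). The IQD family, calmodulin-binding proteins of microtubules and the nucleus, had 9 of 16 members (56.2%) at least 2-fold lower and none that rose. IQD23 had 28.6, 31.3 and 12.6 at Heat08hr and 279 to 359 with a median of 331 at Control08hr (log2 fold change -3.85). In the TBL family, some members of which acetylate wall polysaccharides, 8 of 23 (34.8%) were at least 2-fold lower, TBL26 the most (75.3 ± 22.9 and 436 ± 94.9, -2.55), and in the serine carboxypeptidase-like family 10 of 32 (31.2%), with scpl35 at 203 ± 65.2 and 1619 ± 133 (-3.04). Of 7 CLE peptide genes, 4 (57.1%) were at least 2-fold lower, CLE26 (47.4 and 152, log2 fold change -2.18, adjusted p = 0.0614 after quantile normalization), CLE44 (75.4 ± 12.99 and 306 ± 68.6, -2.003) and CLE41 (399 ± 41.4 and 1044 ± 55.8, -1.39) among them. CLE41 and CLE44 encode the same signal of vascular stem cells. Tubulins, IQD, TBL, carboxypeptidase-like and CLE families were chosen after their values were seen. After centring on the median, 9.88% of all named genes were at least 2-fold lower, beside 4 of 27 (14.8%) for wall loosening, 1 of 7 (14.3%) for tubulins, 5 of 16 (31.2%) for IQD, 6 of 23 (26.1%) for TBL, 7 of 32 (21.9%) for carboxypeptidase-like and 3 of 7 (42.9%) for CLE genes.

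Of the 15 largest falls, LURP1, a gene of the response to an oomycete pathogen, had 9.32, 49.1 and 16.8 at Heat08hr and 4314 to 7277 with a median of 5988 at Control08hr (log2 fold change -8.21, standard error 0.458, adjusted p = 1.92e-06, limma). AT5G55450 fell by about as much (-8.23), with 3.12, 7.84 and 3.21 in heat, near the lowest value of the table, against 793 to 1848 with a median of 1273 in control plants. AT4G30650 had 104, 98.04 and 98.4 at Heat08hr and 11855 to 15596 with a median of 14458 at Control08hr (log2 fold change -7.13), and AT3G22240 259, 564 and 1349 and 26257 to 30499 with a median of 28854 (-5.61). These last 2 were bright on every control array and remained well above the floor in heat. AT5G59670 (-7.24), AT5G45700 (-7.15), AT4G15830 (-6.40), AT5G62550 (-6.005), AT5G42860 (-5.93), AT3G12870 (-5.76), AT5G09240 (-5.69) and AT5G46230 (-5.53) had mean Heat08hr signals of 1.59 to 11.7, where a fold is uncertain. AT1G52000 averaged 36.5 ± 14.95 and 1420 ± 173 (log2 fold change -5.37). The 2 named genes among the 15 besides LURP1 were 3xHMG-box2 and CYCB1;4.

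For several of the genes that fell, the morning control averaged far below the afternoon control. The morning control (Control24hr, 9 arrays) was harvested 3 h after the onset of light from plants of 18, 19 and 20 days. LURP1 averaged 341 ± 546 in the morning control (SD over 9 arrays), AT4G30650 427 ± 66.3 and AT3G22240 5751 ± 5545.5 there. The SD exceeded the mean for LURP1 and came near it for AT3G22240, so both levels are uncertain. Cold-regulated genes were further cases. COR15A, for a protein that protects chloroplast membranes in the cold, had 879, 972 and 1497 at Heat08hr and 18457 to 25341 with a median of 22752 at Control08hr (log2 fold change -4.34, standard error 0.18, adjusted p = 5.03e-07, limma), with 3121 in the morning control. COR15B had 1086, 1076 and 776 against 12808 to 16619 with a median of 13946 (log2 fold change -3.88), with 461 in the morning. The dehydrin gene LTI30 averaged 93.9 ± 11.6 and 1120 ± 264 (-3.55), with 96.7 in the morning. COR47, another dehydrin gene, averaged 5766 ± 1062 and 7078 ± 655 and did not pass (adjusted p = 0.082). OEP16-1, a channel of the outer plastid envelope, had 460.4, 545 and 475 at Heat08hr and 13285 to 15374 with a median of 13992 at Control08hr (log2 fold change -4.85), with 1004 in the morning. The morning values are given as levels with no test, and the afternoon control stands in both comparisons.

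Of 5 clock genes measured, 2 rose, 2 fell and 1 did not pass. CCA1, a repressor that peaks at dawn, had 208, 185 and 185 at Heat08hr and 5.76 to 76.9 with a median of 36.2 at Control08hr (log2 fold change 2.58, standard error 0.733, adjusted p = 0.018, limma), while the morning control stood at 4167. Its heat values were above every afternoon control and far below the morning level, and the control array at 5.76 widens its error. With 1 of the Heat08hr arrays left out the adjusted p was 0.0502 to 0.0569, above the limit each time. ELF4, of the evening complex, had 521, 473 and 501 at Heat08hr and 2877 to 3719 with a median of 3274 at Control08hr (log2 fold change -2.72), with 43.0 in the morning. Its partner ELF3 fell by 0.32 (493 ± 25.8 and 616 ± 34.9), a change of 0.052 after centring on the median, and the blue light receptor LKP2 rose by 0.41 (385 ± 24.6 and 290.1 ± 31.9), with an adjusted p of 0.0503 without Heat08hr replicate 3. GI, another evening gene, averaged 1183 ± 68.4 and 894 ± 241 (adjusted p = 0.138). In starch metabolism 3 of 5 genes were at least 2-fold lower, both of the enzymes of nightly breakdown among them. PWD, which phosphorylates the granule, had 1334, 1352 and 1167 at Heat08hr and 4907 to 5288 with a median of 5103 at Control08hr (log2 fold change -1.99), and DPE1, which recycles maltotriose, 906, 753 and 862 and 2876 to 3352 with a median of 2924 (-1.84). Their morning controls were 629 and 258. APL3, of the first step of synthesis, averaged 107 ± 20.8 and 324 ± 49.5 (-1.60), and the branching enzyme gene SBE2.2 rose by 0.48. ISA1, a debranching enzyme, averaged 977 and 1045 (adjusted p = 0.33), and passed as a rise of 0.274 after centring on the median.

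**Figure D5:**
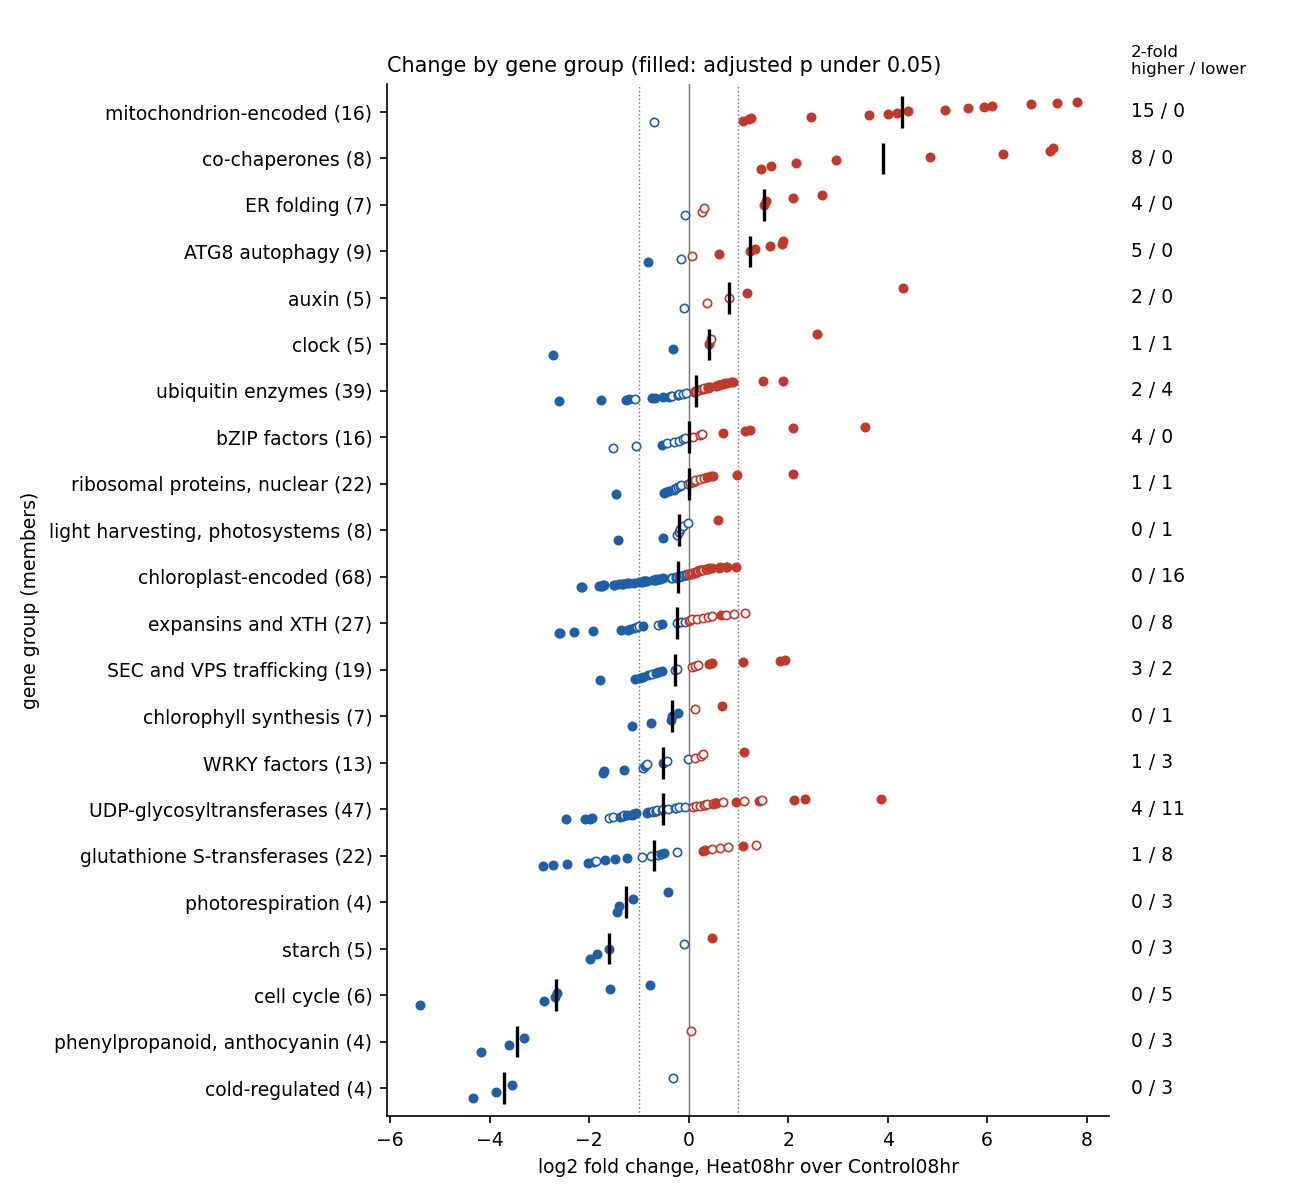
Log2 fold change of Heat08hr over Control08hr for every measured member of 22 gene groups with at least 4 members, 1 row per group, ordered by the group's median (black bar). Filled points passed an adjusted p of 0.05, and the counts at the right give members at least 2-fold higher and lower; mitochondrion-encoded genes (4.298) and co-chaperones (3.91) have the highest medians, and phenylpropanoid (-3.46) and cold-regulated genes (-3.71) the lowest.

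Genes of secondary metabolism were mostly lower. Of 4 phenylpropanoid genes, 3 were at least 2-fold lower (median log2 fold change -3.46), all 3 of anthocyanin synthesis. DFR, dihydroflavonol reductase, had 13.7, 27.5 and 44.4 at Heat08hr and 203 to 294 with a median of 257 at Control08hr (log2 fold change -3.31, standard error 0.321, adjusted p = 4.16e-05, limma), and the anthocyanin glycosyltransferase gene UF3GT 12.8, 8.04 and 11.6 and 137 to 253 with a median of 198 (log2 fold change -4.18). AT5MAT, a malonyltransferase of the same pigments, averaged 7.09 ± 2.78 and 81.5 ± 11.3 (-3.60), and CHIL, which aids chalcone isomerase, 12.9 ± 12.2 and 279.7 ± 73.9 (-4.85). C4H, an enzyme of the shared early pathway, averaged 948 ± 50.3 and 919 ± 79.4 (adjusted p = 0.721), and passed as a rise of 0.419 after centring on the median. Of the 3 glucosinolate genes, BCAT4 (1478 ± 84.2 and 5133 ± 255, log2 fold change -1.80) and IPMI2 (351 ± 54.8 and 1235 ± 77.2, -1.82), both of side chain elongation, fell at least 2-fold, and UGT74B1, of core synthesis, by 0.82.

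Families of enzymes that conjugate and release small molecules are set here beside the shares of all named genes (8.11% higher and 15.5% lower). Of 22 glutathione S-transferases, 8 (36.4%) were at least 2-fold lower and 1 (4.55%) higher, which was GSTU6 (104 ± 2.12 and 50.6 ± 13.9, log2 fold change 1.09). The largest fall was that of GSTU1 (-2.92), dim and with overlapping arrays (13.98 and 74.1), which did not pass without Heat08hr replicate 3 (adjusted p = 0.0585). GSTF9 had 3395, 3563 and 3842 at Heat08hr and 18745 to 20326 with a median of 19662 at Control08hr (log2 fold change -2.44), and GSTF10 1121, 1128 and 1025 and 6279 to 7883 with a median of 7336 (-2.73). Of 47 UDP-glycosyltransferases, 11 (23.4%) were at least 2-fold lower and 4 (8.51%) higher (5 and 5 after centring on the median, where 9.88% of all named genes were lower and 14.4% higher). UGT72B3 fell most (45.01 ± 13.8 and 243 ± 42.2, -2.46), and UGT73C1, the largest rise, was at 203, 149 and 197 in heat against 5.14 to 61.4 with a median of 7.45 (log2 fold change 3.87). Of 22 beta-glucosidases, 7 (31.8%) were lower and 1 higher. BGLU28 fell most (10.3 ± 4.99 and 76.8 ± 9.16, -2.999). BGLU33 averaged 179 ± 7.03 and 1406 ± 96.8 (-2.98), and the exception BGLU25 1634 ± 265 and 424 ± 20.11 (1.94). Among 42 cytochrome P450 genes, 8 (19%) were lower and 2 (4.76%) higher, shares near or below those of all named genes. The largest rise, of CYP71B30P, was dim (16.8 and 4.79, adjusted p = 0.0484, overlapping arrays), and did not pass without Heat08hr replicate 1 or 2 (0.146 and 0.178) or most single control arrays, nor with the replicate number as a block (0.0883). CYP707A2, which breaks down abscisic acid, averaged 22.7 ± 6.68 and 151 ± 30.04 (-2.75), and CYP710A2, a sterol desaturase, 42.5 ± 21.1 and 294 ± 66.3 (-2.91).

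Of 6 genes of salicylate signalling and immunity, 3 (50%) were at least 2-fold lower and none higher, beside 15.5% lower among all named genes. SAG101, a partner of EDS1, averaged 28.2 ± 1.70 at Heat08hr and 98.6 ± 17.1 at Control08hr (log2 fold change -1.79), and WRKY33, a factor of camalexin synthesis, 121 ± 23.64 and 296 ± 30.4 (-1.30). FRK1, the third, was dim, at 4.07 and 20.2 (adjusted p = 0.0484), and lost the call without any 1 of the Heat08hr arrays (0.0911 to 0.146) and without most single control arrays. PR1, the marker of salicylate responses, averaged 111 ± 20.4 and 97.9 ± 20.04 (adjusted p = 0.511). It passed as a rise in 2 of 18 alternatives, at log2 fold changes of 0.562 and 0.596. BIK1, a kinase of immune receptors, averaged 236 and 268 (adjusted p = 0.633). Of 13 WRKY factors, 3 (23.1%) were at least 2-fold lower and WRKY25 was the only one higher, with 298, 317 and 361 against 115 to 201 with a median of 154 (log2 fold change 1.11, adjusted p = 0.00142, limma). After centring on the median, 1 of the 6 defence genes (16.7%) and 1 of the 13 WRKY factors (7.69%) were lower, beside 9.88% of all named genes. Of 4 jasmonate genes, all at signals under 100, PDF1.2, a defensin gene, fell by less than 2-fold (53.8 ± 24.8 and 82.3 ± 4.34, -0.71), a call lost when any of 7 of the 9 arrays was left out (adjusted p of 0.0537 to 0.131). JAZ7 (14.3 ± 12.9 and 3.204 ± 1.19, log2 fold change 1.65, adjusted p = 0.0884), JMT (4.52 ± 1.88 and 13.7 ± 11.8, -1.33, 0.117) and CYP94C1 (24.4 and 36.9, 0.626) did not pass, and the first 2 were more than 2-fold apart between means with wide scatter. JAZ7 passed as a rise in 2 of 17 alternatives, at log2 fold changes of 2.024 and 2.641. Of 5 auxin genes, 2 (40.0%) were at least 2-fold higher, beside 8.11% of all named genes. Both encode GH3 enzymes that join amino acids to auxin. GH3.3 had 521, 625 and 385 at Heat08hr and 8.45 to 52.4 with a median of 34.7 at Control08hr (log2 fold change 4.31), and WES1 averaged 284 ± 29.2 and 127 ± 21.0 (1.17). YUC2, of auxin synthesis, averaged 199 and 154 (adjusted p = 0.0542) and passed as a rise in 7 of the 18 alternatives. IAA29 (161 and 97.2, 0.0694) and GH3.1 (15.6 and 17.03, 0.957) did not pass. The sugar transporters SWEET1 (2732 ± 402 and 354 ± 46.3, log2 fold change 2.95) and SWEET4 (42.4 ± 12.3 and 543 ± 48.9, -3.71) moved in opposite directions.

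Of 4 genes of plastid isoprenoids, carotenoids and tocopherols, 2 rose and 1 fell, none by 2-fold on the deposited scale. Median centring put 2 of the 4 at least 2-fold higher and none lower, where 14.4% of all named genes were higher. AT1G74470, which the reference lists as geranylgeranyl reductase, rose by less than 2-fold (21259 ± 3024 at Heat08hr and 11384 ± 256 at Control08hr, log2 fold change 0.89), as did Z-ISO, of carotenoid synthesis (1955 ± 79.4 and 1097 ± 101, 0.84). HPT1, of the first committed step to tocopherol, fell (299 ± 17.2 and 498 ± 39.6, -0.73), and LYC, a lycopene cyclase, averaged 1335 and 1125 (adjusted p = 0.0917). Of 5 antioxidant genes 2 fell and none rose. The 1 (20.0%) that was at least 2-fold lower is near the share of all named genes (15.5%). GR1, a glutathione reductase, had 295, 281 and 259 at Heat08hr and 688 to 788 with a median of 722 at Control08hr (log2 fold change -1.39, standard error 0.0782, adjusted p = 1.98e-06, limma), and CSD2, the chloroplast superoxide dismutase with copper and zinc, fell by 0.88 (240.3 ± 24.6 and 444 ± 66.0). The plastid glutathione reductase gene GR (2157 and 2131, adjusted p = 0.883) and the ascorbate peroxidase genes TAPX (2847 and 3317, 0.231) and SAPX (1467 and 1231, 0.426) did not pass.

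Of 6 genes of sugar starvation and amino acid breakdown, 2 rose and 3 fell. D2HGDH, a mitochondrial dehydrogenase of hydroxyglutarate, had 32.3, 48.2 and 45.04 at Heat08hr and 363 to 428 with a median of 390.2 at Control08hr (log2 fold change -3.23, standard error 0.131). Both subunits of methylcrotonyl-CoA carboxylase, an enzyme of leucine breakdown, were measured and moved in opposite directions, MCCB with 509 ± 13.3 and 1147 ± 162 (-1.16) and MCCA with 633 ± 31.2 and 451 ± 58.9 (0.50). AKINBETA1, a subunit of the SnRK1 kinase, rose by 0.94 (876 ± 31.8 and 458 ± 31.8), and ETFQO, at a log2 fold change of -0.22, passed on the deposited scale only narrowly (adjusted p = 0.0444) and not when any of 7 of the 9 arrays was left out (0.0762 to 0.116). IVD, which acts before the carboxylase, averaged 295 and 335 (adjusted p = 0.233). Of 8 aldehyde dehydrogenases, a family formed by symbol, 2 (25.0%) were at least 2-fold lower and none higher, with ALDH2C4 at 816 ± 20.003 and 2943 ± 140.4 (-1.85) as the largest fall and ALDH11A3 at 5496 ± 448 and 3760 ± 272 (0.55) as the largest rise.

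The ATG8 genes of autophagy rose more often than they fell. On the deposited scale, 2-fold changes among ubiquitin genes were no more frequent than among all named genes. Of 9 ATG8 genes, for the small proteins that coat autophagosomes, 5 (55.6%) were at least 2-fold higher and none lower (median log2 fold change 1.24). Among all named genes 8.11% were at least 2-fold higher. ATG8H had 660.2, 672 and 789 at Heat08hr and 168 to 226 with a median of 181 at Control08hr (log2 fold change 1.89), and ATG8B averaged 987 ± 197 and 266 ± 30.04 (1.88). APG8H (5733 ± 159.5 and 2438 ± 257, 1.24) and ATG8C (1651 ± 108 and 1078 ± 26.99, 0.61) rose as well, ATG8G fell by 0.82, and ATG8F (2888 and 3204, adjusted p = 0.211) and ATG8D (852 and 807, adjusted p = 0.517) did not pass. Of 39 ubiquitin-conjugating enzymes, ligases and proteases, 14 rose and 8 fell. Only 2 (5.13%) rose and 4 (10.3%) fell at least 2-fold, beside 8.11% and 15.5% of all named genes. After centring on the median, 8 (20.5%) were higher and 2 (5.13%) lower, beside 14.4% and 9.88%. UBC31 had the largest rise at a dim signal (17.83 and 3.203, 1.90), lost without replicate 1 or 2 of the 18-day controls (adjusted p = 0.0534 and 0.0515), and UBP18 averaged 834 ± 111 and 293 ± 17.1 (1.504). UBC28 (14228 ± 2122 and 8715 ± 648, log2 fold change 0.70) and UBC2 (10871 ± 1890 and 6490 ± 329, 0.73) rose by less. VPS60.1 (911 ± 109 and 258 ± 52.3, log2 fold change 1.84) and VPS60.2 (1405 ± 82.1 and 368 ± 39.7, 1.94), accessory proteins of endosomal sorting, were 2 of the 3 trafficking genes of 19 at least 2-fold higher (15.8%), and the exocyst genes SEC15A (-1.79, adjusted p = 0.0682 with control arrays of 19 days only) and SEC10 (-1.07) the 2 lower (10.5%), while 5 rose and 8 fell in all. Ribosomal protein genes of the nucleus had 1 rise and 1 fall of at least 2-fold among 22, a median of 0.00 and 12 members that did not pass. Of the brightest, AT2G19730 rose by 0.49 and AT2G01250 fell by 0.50 (adjusted p = 0.177 after centring on the median), and EMB3113 (adjusted p = 0.0641) and AT2G34480 (0.191) did not pass. AT2G44860 (6596 ± 553 and 1545 ± 103, log2 fold change 2.09) and AT1G77750 (269.6 ± 1.89 and 747 ± 64.1, -1.47) were the 2 that changed by at least 2-fold. The splicing factor gene RS2Z33 had 5327, 4464 and 5044 at Heat08hr and 1469 to 1544 with a median of 1513 at Control08hr (log2 fold change 1.71). MCM5, ATG8B, UBP18, VPS60.1 and SEC10 were named after their values were seen, as were the genes outside the lists that are not among the 15 largest changes in either direction.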

How the data were processed

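Signals of 27 ATH1 arrays were used as deposited. The intensity values were made by the authors with MAS5 in GeneSpring from 1-colour scans. The arrays share a nearly equal trimmed mean, and no detection calls were at hand. The number of arrays limits the precision. Groups, ages and replicate numbers come from the sample labels, and harvest times, light cycle and biological replicates from the study's methods.

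Log2 of the signal was compared between the 3 Heat08hr and 6 Control08hr arrays in R 4.3.3 with limma 3.58.1 (lmFit, eBayes, no covariate), with both ages of control pooled. Benjamini-Hochberg adjustment ran over all 22746 probe sets, and a call of at least 2-fold needed an adjusted p under 0.05. Genes came from the platform annotation and the study's own gene lists. Of the probe sets, 14380 had 1 gene, 571 several and 7795 none, and all stayed in the test. Of several probe sets of a gene (160 genes), the one with the highest geometric mean stood for it. Tables and figures were made in Python 3.11.15.

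The comparison and all gene lists were chosen with earlier results of these data known. The text names the 15 largest changes in each direction with 1 gene, no overlap and a higher group at 100 or more. From lists of 4 or more members it takes the largest rise and fall that passed and the 4 brightest others. All counted heat shock factors, small heat shock proteins and clock genes are named as well. Families formed by symbol or annotation were added later and are named in part. Genes outside this rule are marked. Alternatives were median centring, quantile normalization, controls of either age, all arrays in 1 fit, a replicate block, an added 16, a trended robust variance, a signal minimum of 100 and each array left out. No genome came with the data, so no promoter was searched. The lipid measurements and the authors' own comparison columns were not used.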

Additional observations from a re-analysis of the deposited data

Results flagged for a closer look

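For 20 of the 228 genes named, 1 of the 6 Control08hr arrays lay far from the other 5, with a gap to its nearest neighbour that took up more of the log2 range than Dixon's 95% limit for 6 samples allows. Chance flags about 1 in 20 groups. Groups of 3 Heat08hr arrays were not looked at in this way. Of the 20 flags, 9 fell on replicate 1 of 19 days, and the part of that array in the results was not tested beyond leaving it out.

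On replicate 1 of 19 days, BZIP28 was high at 564.4 against 437.2 to 461.9 on the other control arrays (gap over range 0.784), and BZIP17 low at 351.6 against 386.3 to 408.6 (0.626). EXPA4 was low at 565.9 against 662.2 to 697.1 (0.754), Cpn60beta2 low at 4568 against 5192 to 5452 (0.724) and AT2G19310 low at 1610 against 1931 to 2071 (0.721), and XTH4 high at 6289 against 4818 to 5228 (0.694). CCA1 was low at 5.76 against 31.3 to 76.9 (0.653). At the floor of the table, matR stood at 6.85 against 2.06 to 2.99 (0.690), and AT1G48720 at 1.11 against 1 on all the others (1.0).

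On replicate 2 of 19 days, APL3 was low at 228.2 against 320.3 to 362.7 (0.732), PDF1.2 low at 73.9 against 82.1 to 85.1 (0.744) and AT1G77750 low at 627.1 against 738.7 to 799.6 (0.674). Replicate 3 of 19 days was low for ccb452, at 108.4 against 159.6 to 183.2 (0.738), and for OLEO1, at 5.06 against 21.1 to 47.8 (0.637), and high for BUB3.1, at 637.7 against 464.0 to 521.0 (0.635). Replicate 3 of 18 days was low for SAG101, at 66.0 against 93.5 to 109.9 (0.683), and for AT5G45700, at 160.5 against 217.5 to 255.8 (0.652), and high for ELF3, at 680.9 against 583.0 to 617.6 (0.629). Replicate 1 of 18 days was high for AT1G52560, at 11.9 against 2.03 to 3.89 (0.633), and replicate 2 of 18 days low for CLE26, at 122 against 151.4 to 163.7 (0.733). No called gene of these 20 lost its call when the control array in question was left out.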

How the results depend on the processing

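Of the 228 genes named in the text, 182 passed an adjusted p of 0.05, and 162 of these kept their direction and passed under all 18 alternatives. The other 20 were CCA1, ELF3, LKP2, FRK1, PDF1.2, HPR, GSA1, PORB, KIS, HTB4, BUBR1, KINESIN-12B, SEC15A, CLE26, GSTU1, CYP71B30P, UBC31, ETFQO, MCCA and AT2G01250. Of the 46 genes that did not pass, 27 passed in at least 1 alternative, Cpn60beta3 in 9, YUC2 in 7, EMB3113, IAA29 and atpB in 6 each, BZIP17 in 5, and COR47, Cpn60beta4, GI and rpl32 in 4 each. The counts of at least 2-fold moved most with the scale. Centring each array on its median gave 3400 rises and 2405 falls, against 1905 and 3710 as deposited, and quantile normalization 2417 and 2938. Leaving out 1 array at a time gave 1799 to 1920 rises and 3589 to 3749 falls. With controls of 18 days only there were 1965 and 3384, with controls of 19 days only 1850 and 3513, with all arrays in 1 fit 1928 and 3734, with an added 16 1692 and 3193, with the trended robust variance 1916 and 3749, and with only the 13006 probe sets whose mean signal reached 100 there were 1437 and 2628. After centring on the median, 9 genes changed sign with a test passed on at least 1 side: BZIP60 to a log2 fold change of 0.290, ELF3 to 0.052, ETFQO to 0.151, GSA1 to 0.011, HTB4 to 0.034, ISA1 to 0.274, LHCB4.1 to 0.250, LP1 to 0.345 and PORB to 0.046. Genes that passed on neither scale were not counted, though some changed sign as well, such as Hsp70-2 (-0.139 as deposited and 0.233 after centring). In the other alternatives no change of sign had a test passed on either side.

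Deviations of same-numbered Heat08hr and Control08hr arrays correlated by -0.0206 to 0.0809, and those of different numbers by -0.0731 to 0.0562. These ranges overlap, so whether the replicate numbers pair heat with control arrays is not settled. Between control arrays of 18 and 19 days the same numbers correlated by 0.126 to 0.173, and different numbers by -0.133 to -0.00702. Whether control arrays of the same number share a batch was not tested. With the replicate number as a block there were 1903 rises and 3707 falls, CYP71B30P lost the call (adjusted p = 0.0883), and EMB3113 and atpB gained it.

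Signals near the lowest value of 1 have no reliable fold, which bears on the largest rises and falls. Detection calls were not used here. Most gene families have only a few members with a name, so counts of a list do not stand for the whole family. Whole shoots were sampled at 1 time of day after 1 length of heat.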
